A study of Mus musculus with 12 samples.

Results

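Calpains are calcium-dependent cysteine proteases that cut their substrates at a few sites and so modify proteins more often than they destroy them. Transcripts of 8 genes of this system were followed in the tibialis anterior, a fast muscle of the lower hindlimb, of dystrophic and control mice. The genes were Capn1, Capn2, Capn3, Capn5, Capn6 and Capn7, which encode catalytic chains, Capns1, which encodes the regulatory small subunit, and Cast, which encodes the inhibitor calpastatin. They were chosen by gene symbol, and all 8 were found among the 24421 entries of the count table. All 8 were also among the 13937 genes with enough counts to be tested.

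RNA was sequenced from 6 C57Bl/6 samples (WT) and 6 mdx/mTR samples, all from 4-month-old males. Mice with the mdx mutation lack a working Dmd, which encodes dystrophin, the protein that ties the cytoskeleton of a fibre to its membrane. The abbreviation mTR stands for the gene of the RNA template of telomerase, Terc in the count table. The generation of telomerase deficiency, the zygosity and the breeding of the controls are not given in the sources used here. Because the groups differ in both alleles, what goes with one and what goes with the other cannot be told apart. The labels do not say outright that each sample came from a separate animal, so p-values measure the spread between these samples.

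Calpain 1 and calpain 2, the conventional calpains, each pair a large catalytic chain with the same small subunit, and calpastatin blocks these dimers when calcium is raised. Calpain 3 is made mainly in skeletal muscle, is anchored to the giant sarcomere protein titin, and is the protein lost in a recessive limb-girdle muscular dystrophy. In dystrophin-deficient fibres the membrane is fragile and calcium entry is raised, which is why calpains have long been studied in this disease.

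The catalytic chains are not all proteases. The coding sequence around the active site is shown because it separates Capn6 from the other 5 catalytic-chain genes. Each line gives 13 codons of the longest coding transcript (GENCODE M21, GRCm38), 5′ to 3′, with the codon aligned to the catalytic cysteine codon of Capn2 in capitals.
Capn1: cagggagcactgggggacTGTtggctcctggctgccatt
Capn2: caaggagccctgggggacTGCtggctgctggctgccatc
Capn3: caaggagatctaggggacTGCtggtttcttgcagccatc
Capn5: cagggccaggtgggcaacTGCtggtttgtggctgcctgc
Capn6: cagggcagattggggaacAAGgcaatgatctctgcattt
Capn7: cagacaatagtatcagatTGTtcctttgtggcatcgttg
TGT and TGC encode cysteine, the residue that attacks the peptide bond, and AAG encodes lysine. The capital codon is number 115 in Capn1, 105 in Capn2, 129 in Capn3, 81 in Capn5, 81 in Capn6 and 290 in Capn7. The Capn5 stretch lies at chr7:98151848-98151886 and the Capn6 stretch at chrX:143810881-143810919, both on the minus strand. The stretches of the other genes run across an exon junction.

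Library totals ran from 35136327 to 60330410 counts, and the members drew between 80 counts (the lowest value of Capn5) and 15238 counts (the highest of Capns1) from a library. Levels are given as CPM, which are counts relative to the size of the library, with library sizes scaled by TMM, a trimmed mean of log ratios between libraries. Differences were tested with edgeR's quasi-likelihood test and p-values were adjusted by Benjamini-Hochberg over all 13937 genes, with a threshold of 0.05. Dmd, which checks the mdx label, averaged 237 ± 6.90 CPM over the WT samples and 46.8 ± 7.20 CPM over the mdx/mTR samples (SD, n = 6 each). Terc drew 2 counts in all 12 libraries together, so it gave no check of the mTR label. Summed CPM of the 7 fast fibre markers (such as Acta1, Ckm and Myh4) was 140630 to 168915 in WT and 110818 to 155576 in mdx/mTR. Of these 7 markers, 1 passed as higher and 1 as lower in mdx/mTR, against 25.0% and 23.4% of all genes tested. Alb and Apoa1 of hepatocytes summed to at most 0.0821 CPM in any sample.

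Of the 8 members, 7 passed the threshold: 5 were higher and 2 were lower in mdx/mTR. Across all genes tested 48.3% passed, 25.0% as higher and 23.4% as lower. In 4 members (Capn2, Capns1, Capn3 and Capn7) every mdx/mTR sample lay outside the WT range, as it did for 25.2% of all genes tested. Log2 fold changes, given throughout for mdx/mTR relative to WT, had a median of 0.20 in the 8 members and 0.01 in all genes tested. Passing the threshold was thus common in this comparison and does not set the members apart. Among all genes that passed, the median size of a log2 fold change was 0.44, and only Capn6 of the members exceeded it.

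**Figure D1:**
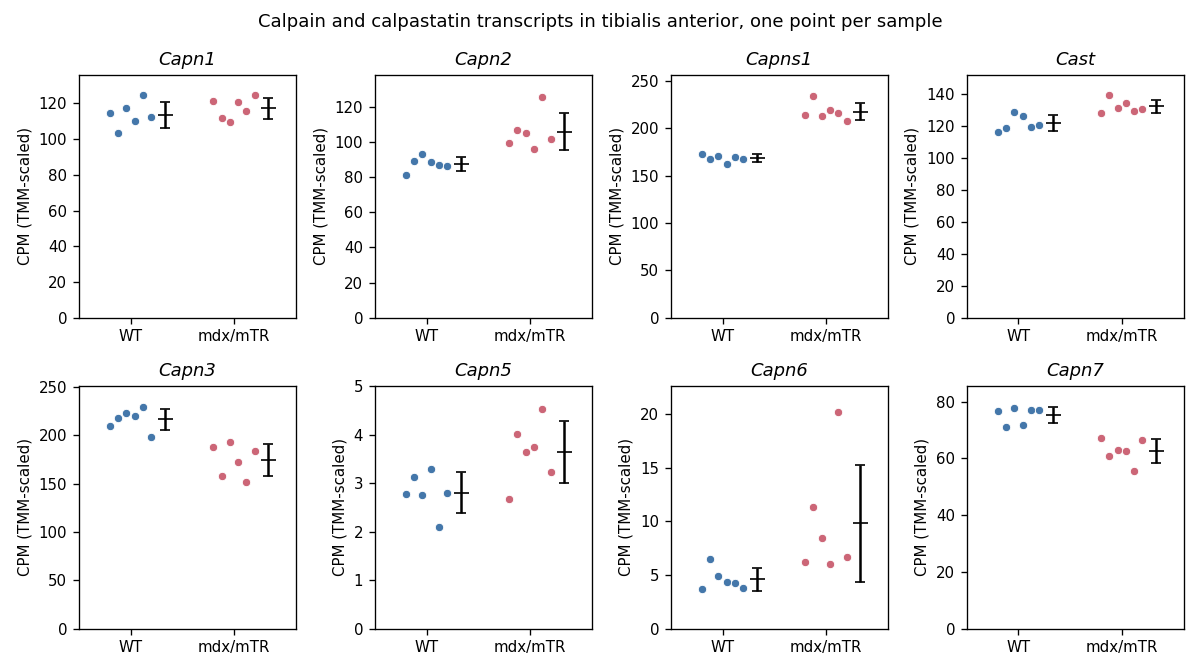
TMM-scaled CPM of the 8 members in each sample (blue, WT; red, mdx/mTR), with the mean and SD over 6 samples as the black bar beside the points; each axis starts at 0. The WT and mdx/mTR points of Capn2, Capns1, Capn3 and Capn7 do not overlap, those of Capn1 share nearly the same range, and Capn6 has a single mdx/mTR sample at 20.2 CPM.

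Of the 2 conventional catalytic chains, only Capn2 passed the threshold with TMM scaling. The Capn2 to Capn1 ratio, given below, compares them directly. Its call was lost in 8 of the 12 tests that left out 1 sample. Capn1 (GRCm38 chr19:5988545-6015897, minus strand), which encodes µ-calpain, had a lowest, median and highest level of 103, 114 and 125 CPM in WT and 109.8, 118 and 124 CPM in mdx/mTR. The groups overlapped over almost their whole range. The means were 114 ± 7.26 and 117 ± 5.84 CPM (SD, n = 6), a log2 fold change of 0.04 ± 0.05 (SE) with an edgeR adjusted p of 0.50. The 95% interval of the fold change ran from 0.956 to 1.11.

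Capn2 (chr1:182467260-182517608, minus strand), which encodes m-calpain, stood at 81.2, 87.6 and 92.9 CPM in WT and at 96.1, 103 and 126 CPM in mdx/mTR (lowest, median, highest). Every mdx/mTR sample was above every WT sample, and mdx/mTR replicate 5 stood well above its group. Mean levels were 87.4 ± 3.83 and 106 ± 10.5 CPM, and the log2 fold change was 0.27 ± 0.06 (adjusted p = 0.00239, edgeR), a 1.21-fold rise. Without mdx/mTR replicate 5 the mdx/mTR mean was 102 ± 4.25 CPM and the log2 fold change 0.21 (adjusted p = 0.00154).

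Capns1 (chr7:30186936-30198811, minus strand), the small subunit that both conventional calpains need, showed the smallest adjusted p of the 8 genes. Its levels were 162, 169 and 173 CPM in WT and 208, 215 and 234 CPM in mdx/mTR (lowest, median, highest). The WT samples lay close together, and the lowest mdx/mTR sample was well above the highest of them. The log2 fold change was 0.37 ± 0.04 (adjusted p = 1.2e-05, edgeR), a 1.29-fold rise from 169 ± 3.97 to 217 ± 8.99 CPM.

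Cast (chr13:74692368-74808810, minus strand), the inhibitor, rose by less. WT samples had a lowest, median and highest level of 116, 120.3 and 129 CPM, and mdx/mTR samples of 129, 131 and 139.8 CPM. The overlap was slight: WT replicate 3 at 129.1 CPM stood above mdx/mTR replicate 1 at 128.6 CPM. From 122 ± 4.93 to 132 ± 4.14 CPM, the log2 fold change was 0.12 ± 0.04 (adjusted p = 0.0247, edgeR). This call was near the threshold: without a filter on low counts the adjusted p was 0.0514, and it reached 0.0625 when single samples were left out, with WT replicates 1, 5 and 6 each ending it. Cast shares 834 exonic bases with Erap1 on the opposite strand, and whether the counting used strand is not given in the sources used here. Other genes overlap 229 exonic bases of Capn1, 290 of Capn2, 202 of Capns1 and 122 of Capn6. Erap1 moved the other way than Cast, with a WT range of 26.6 to 33.7 CPM and an mdx/mTR range of 20.5 to 26.2 CPM (-0.40 on the log2 scale, adjusted p = 0.000726, edgeR).

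Capn3 (chr2:120456019-120504913, plus strand) was the member that fell furthest. Its lowest, median and highest levels were 198, 219 and 229 CPM in WT and 152, 178 and 193 CPM in mdx/mTR. No mdx/mTR sample reached the lowest WT sample, and mdx/mTR replicates 5 (152 CPM) and 2 (158 CPM) were lowest. The mean fell from 216 ± 10.8 to 175 ± 16.8 CPM, which is 80.7% of WT, with a log2 fold change of -0.31 ± 0.06 (adjusted p = 0.00137, edgeR). In bulk muscle, fewer cells of a type and less RNA per cell cannot be told apart, for this gene and for the others.

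The deposited counts are per gene, so the transcripts that start at different places in Capn3 cannot be told apart. RefSeq (GRCm38.p6) matched 7 of the 8 members and gave 12 promoter windows, of which 2 belong to Capn3. The window shown covers the 250 bases before the more upstream of these 2 Capn3 starts. The GENCODE span of the gene begins further upstream, at chr2:120456019. This window was chosen because it alone among the member windows matched the binding consensus of MEF2, a family of muscle transcription factors. The match is in capitals, and its first base lies 72 bases before the start.
Capn3, chr2:120463343-120463592, plus strand: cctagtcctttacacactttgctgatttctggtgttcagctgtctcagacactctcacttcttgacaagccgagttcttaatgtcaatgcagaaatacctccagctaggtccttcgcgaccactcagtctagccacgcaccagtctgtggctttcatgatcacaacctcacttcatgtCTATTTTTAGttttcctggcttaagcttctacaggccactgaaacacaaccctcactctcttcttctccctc
A match to the consensus was present in 2.92% of all 32851 RefSeq promoter windows of the same length, searched on both strands. CANNTG, the E-box recognised by MyoD and related factors, was present in 8 of the 12 member windows and in 66.2% of all windows. GGGCGG was present in 5 of the 12 and in 32.7% of all, and TATAAA in 0 of the 12 and in 12.4% of all. No match of one motif overlapped a match of another in the member windows. These are matches of letters and no measurement of binding.

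The remaining catalytic chains are not conventional calpains. Capn7 (chr14:31336638-31371986, plus strand), which encodes a calpain that binds proteins of the ESCRT membrane-sorting machinery, had lowest, median and highest levels of 71.2, 76.8 and 77.7 CPM in the WT samples and of 55.4, 62.8 and 67.1 CPM in the mdx/mTR samples. All 6 mdx/mTR samples were below all 6 WT samples. Its log2 fold change of -0.27 ± 0.05 (adjusted p = 0.000699, edgeR) corresponds to 83.2% of the WT mean, with means of 75.2 ± 2.92 and 62.6 ± 4.22 CPM.

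Capn6 (chrX:143802231-143827414, minus strand) encodes a protein that lacks the catalytic cysteine, as its AAG codon shows, and that has been described as a stabiliser of microtubules. It had the largest fold change of the 8 genes at a low level. WT samples had 3.70, 4.30 and 6.53 CPM and mdx/mTR samples 6.07, 7.56 and 20.2 CPM (lowest, median, highest). Mdx/mTR replicates 5 (20.2 CPM) and 2 (11.4 CPM) were highest, while replicates 1 (6.24 CPM) and 4 (6.07 CPM) were below WT replicate 2 (6.53 CPM). The mean rose from 4.59 ± 1.04 to 9.83 ± 5.44 CPM, 2.14-fold, with a log2 fold change of 1.10 ± 0.28 (adjusted p = 0.00568, edgeR). Leaving out mdx/mTR replicate 5 gave a mean of 7.76 ± 2.22 CPM, a log2 fold change of 0.76 and an adjusted p of 0.00446.

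Capn5 (chr7:98121559-98178274, minus strand), which encodes a calpain without the calcium-binding EF-hand domain of the conventional chains, was the least abundant member. Levels were 2.09, 2.78 and 3.29 CPM in WT and 2.67, 3.69 and 4.52 CPM in mdx/mTR (lowest, median, highest), and the groups overlapped through mdx/mTR replicate 1. The log2 fold change was 0.37 ± 0.14 (adjusted p = 0.0384, edgeR). Its call was lost in 8 of the 12 fits that left out 1 sample (each except WT replicates 2 and 4 and mdx/mTR replicates 1 and 6), where the adjusted p reached 0.0850 without mdx/mTR replicate 5, and with limma-voom (adjusted p = 0.0582).

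The scaling of the libraries moved all members in the same direction. With library totals alone, all genes tested shifted: their median log2 fold change moved from 0.01 to 0.17, and 78.2% of the genes that passed were higher in mdx/mTR against 51.6% with TMM. On that scale Capn1 passed the threshold with a log2 fold change of 0.20 (adjusted p = 0.00321, edgeR), close to the median of all genes. Capn3 stood at -0.16 (adjusted p = 0.0107) and Capn7 at -0.11 (adjusted p = 0.0135), both still lower in mdx/mTR, while Capn2 stood at 0.44, Capns1 at 0.53, Cast at 0.28, Capn5 at 0.54 and Capn6 at 1.29. The direction was the same on both scales for each of the 8 genes.

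**Figure D2:**
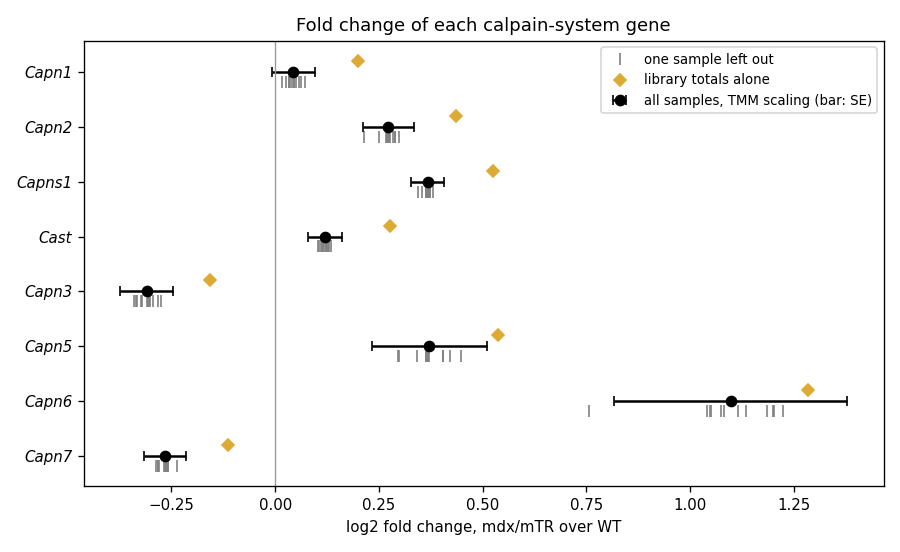
Log2 fold change of each member in mdx/mTR relative to WT, with TMM scaling (black point, bar ± SE), with 1 sample left out in turn (grey ticks) and with library totals alone (yellow diamonds). Capn3 and Capn7 lie below 0 and Capn2, Capns1, Cast, Capn5 and Capn6 above 0 in every case, and 1 tick of Capn6, at 0.76, stands apart from the rest.

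In the authors' deposited table, the log2 fold changes were 0.03 for Capn1, 0.26 for Capn2, 0.36 for Capns1, 0.11 for Cast, -0.32 for Capn3, 0.35 for Capn5, 0.96 for Capn6 and -0.27 for Capn7. In the authors' deposited table, Capn1 had an adjusted p of 0.635 and the other 7 genes had values below the threshold, the largest being 0.0267 for Capn5.

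Levels of different genes were compared as CPM per kilobase of the longest coding transcript. In WT, Capns1 was highest at 105 ± 2.48 CPM per kilobase, followed by Capn3 at 68.2 ± 3.40, Capn1 at 37.2 ± 2.37, Capn2 at 27.1 ± 1.19, Cast at 23.7 ± 0.959, Capn7 at 20.6 ± 0.800, Capn6 at 1.29 ± 0.293 and Capn5 at 0.623 ± 0.0919. Neighbours in this order did not overlap in WT. The order was the same in mdx/mTR, with Capns1 at 136 ± 5.62 and Capn3 at 55.0 ± 5.29 CPM per kilobase. There Capn1 (35.9 to 40.7) and Capn2 (29.8 to 38.9) overlapped, which they did not in WT (33.7 to 40.8 against 25.2 to 28.8). The order depends on the length used: with the median length of the coding transcripts, an alternative chosen after seeing the data, WT levels of Capn3 (78.2 ± 3.90) and Capn1 (77.4 ± 4.94 CPM per kilobase) overlapped, Cast (43.9 ± 1.78) stood above Capn2 (27.1 ± 1.19), and Capn5 (2.10 ± 0.309) overlapped Capn6 (1.29 ± 0.293). In mdx/mTR on that length Capn1 (79.8 ± 3.97) stood above Capn3 (63.1 ± 6.07). Capns1 was highest and Capn7 sixth on either length in both groups.

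Within the summed level per kilobase of the 6 catalytic-chain genes, Capn3 took 44.0% ± 1.15 of the WT total and 37.4% ± 2.87 of the mdx/mTR total (SD, n = 6). The ranges, 42.0% to 45.1% and 32.7% to 40.6%, did not overlap. Capn2 moved the other way, from 17.5% ± 0.714 to 22.3% ± 2.37, also without overlap (16.6% to 18.2% against 20.5% to 26.6%). Capn1 took 24.0% ± 1.10 in WT and 26.1% ± 1.24 in mdx/mTR, Capn7 13.3% ± 0.580 and 11.7% ± 0.680, and Capn6 0.832% ± 0.194 and 1.89% ± 1.06. The size of each share depends on the length used. With the median length of each gene's coding transcripts in place of the longest, Capn3 took 37.8% ± 1.17 and 31.8% ± 2.48, Capn1 37.4% ± 1.45 and 40.2% ± 1.56, and Capn2 13.1% ± 0.610 and 16.5% ± 1.83. On that length Capn3 and Capn1 overlapped in WT and Capn1 held the larger share in mdx/mTR, while the Capn3 share again did not overlap between groups (36.0% to 39.3% against 27.9% to 35.01%), nor did that of Capn2 (12.3% to 13.8% against 15.1% to 19.8%). The shares of each sample sum to the whole, so their movements are not separate results. Capn1 gained share although its own level did not pass the threshold. These shares are given as a description, without a test.

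**Figure D3:**
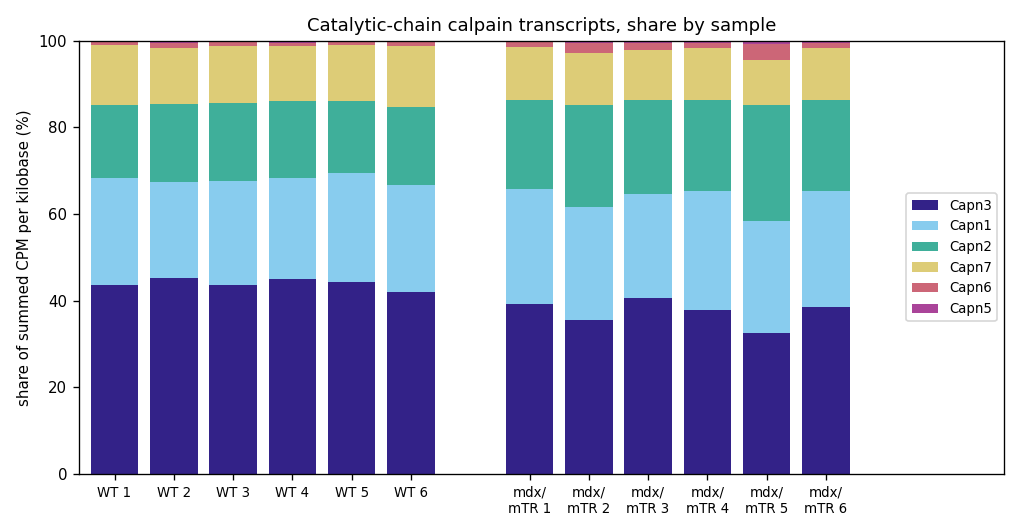
Share of each catalytic-chain gene in the summed CPM per kilobase (% of the 6 genes, y axis) for each sample, WT on the left and mdx/mTR on the right. The Capn3 segment is 42.0% to 45.1% in WT and 32.7% to 40.6% in mdx/mTR, with its lowest value in mdx/mTR replicate 5, where the Capn2 segment (26.6%) is highest.

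A ratio of 2 genes within a library does not depend on how libraries are scaled. Its level depends on the lengths used, but its log2 difference between groups does not. For 4 such ratios, each per length, the mean log2 ratio was compared by a two-sided exact permutation test, and p-values were adjusted by Benjamini-Hochberg over the 4. No p below 0.00216 can be reached with 6 samples against 6. The Capn3 to Capn1 ratio was 1.84 ± 0.124 in WT (1.70 to 2.03) and 1.44 ± 0.147 in mdx/mTR (1.27 to 1.70). The highest mdx/mTR sample (1.697) was just below the lowest WT sample (1.699), the log2 difference was -0.36, and the exact p was that smallest value (adjusted p = 0.00866).

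The ratio of Capn2 to its inhibitor Cast was 1.14 ± 0.0298 in WT (1.11 to 1.19) and 1.27 ± 0.141 in mdx/mTR (1.14 to 1.55). The groups overlapped at their edges, and mdx/mTR replicate 5 held the highest value. The log2 difference was 0.15 (exact permutation p = 0.00866, adjusted p = 0.0173), and with single samples left out it ran from 0.09 to 0.18, lowest without mdx/mTR replicate 5. The Capn1 to Cast ratio was 1.57 ± 0.117 and 1.49 ± 0.102, a log2 difference of -0.08 that did not pass (exact permutation p = 0.232, adjusted p = 0.232).

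The Capn2 to Capn1 ratio was 0.732 ± 0.0592 in WT (0.661 to 0.818) and 0.858 ± 0.109 in mdx/mTR (0.755 to 1.03). Mdx/mTR replicates 1, 4 and 6 lay within the WT range, and replicates 2, 3 and 5 lay above it. The log2 difference was 0.22 (exact permutation p = 0.0325, adjusted p = 0.0433), but the adjusted p passed the threshold in only 4 of the 12 tests with 1 sample left out (without WT replicate 2 or mdx/mTR replicate 1, 4 or 6) and reached 0.0895 in the others.

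**Figure D4:**
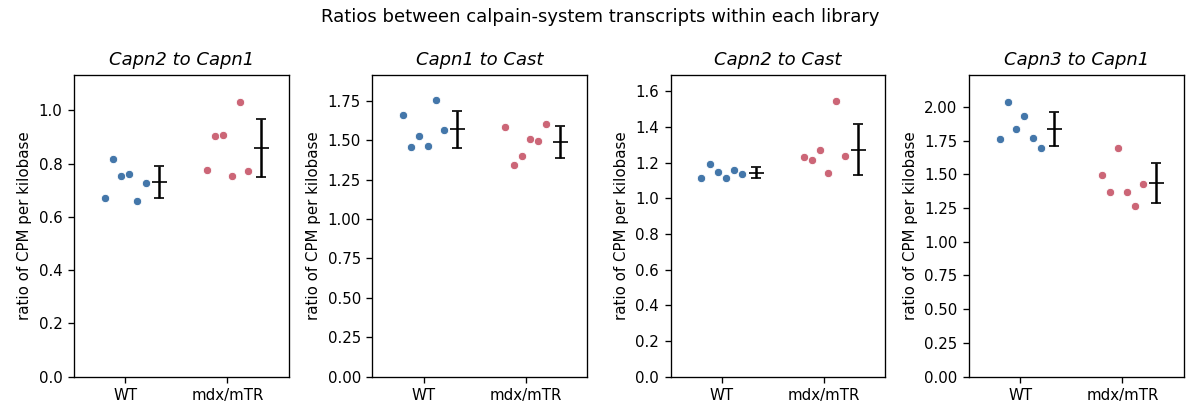
Ratios of CPM per kilobase between pairs of members within each library (blue, WT; red, mdx/mTR), with the mean and SD over 6 samples as the black bar. The Capn3 to Capn1 ratio does not overlap between groups (1.70 to 2.03 against 1.27 to 1.70), and mdx/mTR replicate 5 gives the highest Capn2 to Capn1 (1.03) and Capn2 to Cast (1.55) ratios.

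Mdx/mTR replicate 5 took the extreme position for 5 of the members. It was highest of its group for Capn2 (144% of the WT mean), Capn5 (161%) and Capn6 (439.8%), and lowest for Capn3 (70.2%) and Capn7 (73.6%). For Capns1 (128%) and Cast (106%) it lay inside its group, where mdx/mTR replicate 2 was highest (139% and 115%). Capn1 stood between 96.5% and 109% of the WT mean in the 6 mdx/mTR samples.

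**Figure D5:**
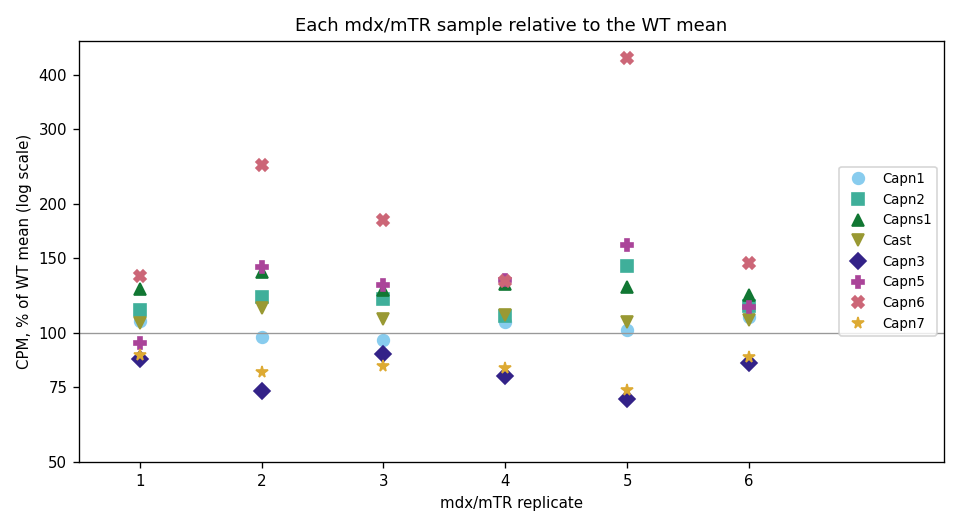
CPM of each member in each mdx/mTR sample as a percentage of the WT mean (log scale; the line marks 100%). Replicate 5 holds both the highest Capn6 value (439.8%) and the lowest Capn3 value (70.2%), while Capn1 stays between 96.5% and 109% in all 6 samples.

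Markers of some other cell types and states were also highest in mdx/mTR replicate 5. All 6 markers of regenerating fibres and myoblasts (Myod1, Myog, Myh3, Myh8, Tmem8c and Chrng) were higher in mdx/mTR, and their summed level was 28.3 to 40.0 CPM in WT and 109 to 509 CPM in mdx/mTR, highest in replicates 5 (509 CPM) and 2 (248 CPM). Of 7 macrophage markers 6 were higher (summed 70.9 to 125 CPM in WT, 204 to 568 CPM in mdx/mTR, highest in replicate 5), and all 5 fibroblast markers were higher (841 to 1559 CPM in WT, 2160 to 4359 CPM in mdx/mTR, highest in replicate 5). The same samples, 5 and 2, were highest for Capn2, Capn5 and Capn6 and lowest for Capn3 and Capn7. The part of these cell types in the member results was not tested. For comparison, 25.0% of all genes tested passed as higher and 23.4% as lower. Of 4 endothelial markers 2 were lower and 0 higher (summed 391 to 516 CPM in WT, 311 to 414 CPM in mdx/mTR), 2 of 3 Schwann cell markers were lower, and 0 of the 2 tested adipocyte markers passed. The highest mdx/mTR sums of these lists were not in replicate 5. They were in replicate 2 for endothelial (414 CPM), 6 for Schwann cell (22.4 CPM) and 3 for adipocyte markers (8.42 CPM).

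Of the 12 member promoter windows, those of Capn2 and Capn6 held TGACTCA, the element bound by AP-1 factors such as Fos and Jun. The windows of Capns1 and Cast, which rose as Capn2 and Capn6 did, held no match, and no Capn5 window was searched. Whether the element has a part in any of these changes was not tested. The windows of Capn2 and Capn6 are shown, each 250 bases before the start (GRCm38.p6), read 5′ to 3′ on the minus strand, with the match in capitals.
Capn2, chr1:182517611-182517860: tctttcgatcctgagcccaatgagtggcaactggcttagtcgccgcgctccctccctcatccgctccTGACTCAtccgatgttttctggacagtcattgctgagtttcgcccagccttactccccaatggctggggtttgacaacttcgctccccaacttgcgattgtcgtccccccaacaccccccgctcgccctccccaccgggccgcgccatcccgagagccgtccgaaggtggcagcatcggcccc
Capn6, chrX:143827413-143827662: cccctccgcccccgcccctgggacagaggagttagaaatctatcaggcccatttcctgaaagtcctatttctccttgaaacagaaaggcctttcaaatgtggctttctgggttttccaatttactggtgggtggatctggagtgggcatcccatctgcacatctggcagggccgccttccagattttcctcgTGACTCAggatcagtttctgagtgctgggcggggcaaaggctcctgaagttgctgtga
The first base of the match lies 183 bases before the start in Capn2 and 58 bases before it in Capn6. The same letters, on either strand, were present in 4.46% of all windows. A match says nothing of whether a factor was bound in these muscles.

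The genes whose levels varied most like those of a member, after the group means were removed, were named by the Pearson r of log2(CPM + 0.5) over the 12 samples among 9509 genes of at least 5 CPM. These values are descriptions, and the samples share tissue composition and library preparation. For Capn3 they were Scmh1 (r = 0.933), Gnpat (0.928) and Rhbdl3 (0.916), and without mdx/mTR replicate 5 the values were 0.911, 0.898 and 0.880. For Capn6 they were Casq2 (0.975), which encodes a calcium-storing protein of the sarcoplasmic reticulum of slow and cardiac muscle, Vasp (0.962), which encodes an actin regulator, and Maged1 (0.959). Without mdx/mTR replicate 5 these Capn6 values were 0.959, 0.929 and 0.901. For Capn2 they were Gm2a (0.949), which encodes a lysosomal lipid-binding protein, Lyn (0.931), which encodes a kinase of blood cells, and Atxn7l3 (0.926), and without replicate 5 these fell to 0.864, 0.831 and 0.788.

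Other genes of the calpain family were scarce or did not pass. Of 8 (Capn8, Capn9, Capn10, Capn11, Capn12, Capn13, Capn15 and Capns2), 3 had enough counts to be tested and 0 passed with edgeR, either adjusted or at an unadjusted p of 0.05; DESeq2 and limma-voom also called none. Capn10 averaged 6.41 ± 0.446 CPM (WT) and 6.61 ± 0.372 CPM (mdx/mTR), a log2 fold change of 0.04 (adjusted p = 0.631). Capn15 stood at 9.29 ± 1.11 and 9.01 ± 0.867 CPM (-0.04, adjusted p = 0.715; 0.12 with library totals alone), and Capn12 at 0.354 ± 0.0812 and 0.370 ± 0.0320 CPM (0.06, adjusted p = 0.852). Over all 12 libraries Capn8 drew 3 counts, Capn9 11, Capn13 6 and Capns2, the second small subunit gene, 9. A count of 3 corresponds to 0.0460 to 0.0837 CPM in a library.

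A list of 10 genes whose proteins bind calpain 3 or are reported as its substrates were set beside it. With edgeR 1 was higher, 5 were lower and 4 did not pass, the median log2 fold change was -0.18 (0.01 over all genes tested), and the groups did not overlap for 5. Over all genes tested 48.3% passed, 25.0% as higher and 23.4% as lower, and 25.2% did not overlap. Ahnak, which encodes a giant membrane-repair scaffold, rose from 405 ± 28.3 to 583 ± 45.5 CPM (log2 fold change 0.53, adjusted p = 2.7e-05). Ryr1, the calcium release channel of the sarcoplasmic reticulum, fell from 7862 ± 458 to 5493 ± 858 CPM (-0.52, adjusted p = 0.00109). Cmya5, which encodes the costamere protein myospryn, fell from 4456 ± 305 to 3315 ± 470 CPM (-0.43, adjusted p = 0.00234), and Ankrd2, a stretch-responsive titin-binding gene product, from 85.2 ± 17.3 to 52.4 ± 13.3 CPM (-0.70, adjusted p = 0.00336). Nearer the threshold, Ttn, which encodes titin, fell from 18549 ± 711 to 15866 ± 1590 CPM (-0.23, adjusted p = 0.0438), and Simc1, whose product binds calpain 3, from 5.59 ± 0.377 to 4.71 ± 0.664 CPM (-0.25, adjusted p = 0.0487). Dysf, which encodes the membrane-repair protein dysferlin, did not pass (0.01, adjusted p = 0.905), nor did Flnc, Camk2b or Aldoa. With library totals alone 3 of the 10 were higher and 3 lower, the median was -0.02, and neither Ttn (-0.08, adjusted p = 0.276) nor Simc1 (-0.09, adjusted p = 0.504) passed. Ttn and Simc1 each also lost the call in most fits that left out 1 sample.

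Of 9 genes for cytoskeletal substrates of the conventional calpains, 3 were higher, 1 was lower and 5 did not pass with edgeR. The median log2 fold change was 0.15 (0.05 without mdx/mTR replicate 5), and the groups did not overlap for 4, against 48.3% called and 25.2% not overlapping over all genes tested. With DESeq2, limma-voom, upper quartile factors or a filter at 1 CPM, 4 of the 9 were higher and 1 lower. Ezr, which encodes the membrane-to-actin linker ezrin, rose from 2.64 ± 0.541 to 7.39 ± 3.55 CPM (1.48, adjusted p = 0.000363), with mdx/mTR replicate 5 at 14.3 CPM. Vim, the intermediate filament vimentin of mesenchymal and regenerating cells, rose from 112 ± 21.0 to 249 ± 90.5 CPM (1.15, adjusted p = 0.000576), and Vcl, the adhesion protein vinculin, from 151 ± 13.9 to 198 ± 20.4 CPM (0.39, adjusted p = 0.000809). Ptk2, which encodes focal adhesion kinase, fell from 43.0 ± 1.27 to 36.1 ± 1.89 CPM (-0.25, adjusted p = 0.000356), and with library totals alone it was at -0.10 and did not pass (adjusted p = 0.148), leaving 4 of the 9 higher and 0 lower. Spectrin, the talins, desmin and filamin A (Sptan1, Tln1, Tln2, Des and Flna) did not pass. Of these, Des was close to the threshold (0.15, adjusted p = 0.0539, edgeR). Transcript levels do not measure cleavage of these proteins.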

How the data were processed

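Gene counts for 6 WT and 6 mdx/mTR tibialis anterior samples were used as deposited: whole-number counts per gene symbol, not normalized, with 0 sample columns unmatched and 0 rows without a name. The submitters' processing notes name FastQC, STAR, DESeq2 and build mm10, without versions or roles; counter, annotation and strand handling are not given in the sources used here, so reads of overlapping antisense genes may be mixed. The authors' own comparison, as deposited, has columns that per the file headers give an average normalized signal, log2 fold changes with standard errors, a test score, and p-values.

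The members, the gene lists and the tests were chosen with earlier results of these data known. Counts were filtered with filterByExpr, scaled by TMM and fitted with glmQLFit and glmQLFTest (edgeR 4.0.16, limma 3.58.1, R 4.3.3), group being the only term. The SE of a log2 fold change is its size over the square root of F. Ratios were tested by listing all regroupings of the samples in Python 3.11.15 with numpy 2.4.6, and scipy 1.17.1 was also loaded. Tables and figures were made with pandas 2.3.3, numpy 2.4.6 and matplotlib 3.10.9. Biopython 1.88 aligned the coding sequences. Gene positions are from GENCODE M21 (GRCm38). On simulated counts for 13847 genes with 200 changed, edgeR recovered 84.5% with 8 false calls (96% of genes changed 2-fold).

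Named were the 8 members, Dmd and Terc, tested family genes, the 4 smallest p-values of each list and the 3 genes most alike to Capn2, Capn3 and Capn6; Ttn, Simc1, Dysf and Erap1 were named after their values were seen. Library totals of 35136327 to 60330410 counts put a floor of 3 counts (the 95% limit that a count of 0 allows, counting error only) at 0.0460 to 0.0837 CPM. Replicates differed by more than sampling noise (chi-square per degree of freedom 9.29 to 122). Alternatives were other filters and scalings, DESeq2 1.42.0, limma-voom, a replicate block, a stricter threshold, a minimum effect, transcript length for the Capn3 share, and leaving out each sample; thinning to the smallest library, and transcript length for the other levels and shares, were chosen after seeing the data.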

Additional observations from a re-analysis of the deposited data

Results flagged for a closer look

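A sample far from the rest of its group of 6, judged by the ratio of its gap to the group's range (Dixon's test at the 95% level), was found in 6 of 52 groups of values; chance gives about 1 in 20, or 2.6 here. Mdx/mTR replicate 5 accounted for 4 of the 6. Its Capn2 level was 125.6 CPM, while the other samples of its group held 96.1 to 106.5 CPM. Its Capn6 level was 20.2 CPM, against 6.07 to 11.4 CPM, a gap only just past the limit. Its Ezr level was 14.3 CPM, against 4.57 to 7.23 CPM. Its log2 ratio of Capn2 to Cast counts was -0.0443, against -0.484 to -0.324. The sample also had the highest summed markers of regenerating fibres, macrophages and fibroblasts, and the part of these in its values was not tested. Vcl stood at 238 CPM in mdx/mTR replicate 2, against 180.0 to 196 CPM in the others. In WT, Ryr1 was low in replicate 2, at 7009 CPM against 7910 to 8403 CPM.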

How the results depend on the processing

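When a log2 change of at least 0.5 was required, 1368 genes and 0 members passed: the values stayed at 0.27 for Capn2, 0.37 for Capns1, 0.12 for Cast, -0.31 for Capn3, 0.37 for Capn5, -0.27 for Capn7 and 1.10 for Capn6 (adjusted p = 0.0719), because this test asks for a larger change. At an adjusted p of 0.01, Cast (0.12) and Capn5 (0.37) no longer passed. Without a filter on low counts Cast stood at 0.12 (adjusted p = 0.0514), with limma-voom Capn5 at 0.36 (adjusted p = 0.0582), and with library totals alone Capn1 passed at 0.20 and Capn15 turned to 0.12; the causes were not tested. The count of genes was 4621 at an adjusted p of 0.01 and ran from 6076 to 7259 over the filters, scalings, tools and thinning tried.

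Same-numbered samples deviated together in only 2 of 6 pairs (correlations from -0.15 to 0.35), so the numbers were not taken to pair them. With a replicate block Cast stood at 0.12 (adjusted p = 0.0558) and Capn5 at 0.36 (adjusted p = 0.0697), and 6420 genes passed. Exact sign flips over these pairs, whose smallest p is 0.03125, gave log2 differences of 0.22 for Capn2 to Capn1 (adjusted p = 0.0833), 0.15 for Capn2 to Cast (adjusted p = 0.0625) and -0.36 for Capn3 to Capn1 (adjusted p = 0.0625) under the block. The last 2 ratios were already at that smallest p, so this test had little room to call them after adjustment.

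With each sample left out in turn, 6125 to 6816 genes and 5 to 7 members passed. The log2 fold change ran from 0.02 to 0.07 for Capn1, 0.21 to 0.30 for Capn2, 0.35 to 0.38 for Capns1, 0.10 to 0.14 for Cast, -0.34 to -0.28 for Capn3, 0.30 to 0.45 for Capn5, 0.76 to 1.22 for Capn6 and -0.29 to -0.24 for Capn7. Capn12 ran from -0.0441 (without WT replicate 3) to 0.117, and Capn15 from -0.0867 to 0.0170 (without WT replicate 6). Log2 ratio differences ran from 0.17 to 0.26 (Capn2 to Capn1), -0.10 to -0.04 (Capn1 to Cast), 0.09 to 0.18 (Capn2 to Cast) and -0.41 to -0.32 (Capn3 to Capn1), and the difference in Capn3 share from -7.19 to -5.59 percentage points. Among the other family genes, Capn8, Capn9, Capn13 and Capns2 were too scarce in these libraries to compare.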

Other observations

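Capn11, a calpain gene best known from the testis, was too uneven to enter the comparison. It drew 27, 155, 2, 3, 1 and 107 counts in WT replicates 1 to 6 and 1, 83, 3, 57, 2 and 4 counts in mdx/mTR replicates 1 to 6. High and low values occurred in both groups: 5 libraries held 20 counts or more and the other 7 held 4 or fewer.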
